A study of Mus musculus with 44 samples.

Results

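The Hox cluster genes are the 39 mouse genes of the HoxA, HoxB, HoxC and HoxD clusters, taken here as every gene whose name in the deposited tables is Hox followed by the cluster letter and a number, and they are 39 of the 32287 gene identifiers measured. HoxA holds 11 of them, HoxB 10, HoxC 9 and HoxD 9. Their transcript abundance, in TPM (transcript counts scaled for gene length and library size, summed per gene identifier), was compared across 44 low-input bulk RNA-seq libraries in 12 groups.

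The study followed gut endoderm that comes from the embryo proper and from the extraembryonic endoderm, using mouse embryos made by aggregating GFP-labelled embryonic stem cells (G4) with mCherry-labelled morulae (CD1/G4). The stem cells give the embryonic lineage and the morula gives the extraembryonic lineage. All groups were WT except the E13.5 extraembryonic ones, which were Trp53 KO. At E6.5, when the embryo is a cup of epiblast under extraembryonic endoderm, epiblast (Epi), distal extraembryonic endoderm (exEndo1) and proximal extraembryonic endoderm (exEndo2) had 4 libraries each. At E9.5, EPCAM-positive cells were sorted from yolk sac (YsEndo), midgut (emMidgut, exMidgut) and hindgut (emHindgut, exHindgut), again with 4 libraries each, the gut libraries being pools of 4 embryos. At E13.5, 3 libraries each came from small intestine and colon endoderm of embryonic (emSI, emColon; WT) and extraembryonic (exSI, exColon; Trp53 KO) origin. Every embryonic cell came from 1 male stem cell line, whereas the extraembryonic cells came from morulae of either sex, so origin and parental material cannot be told apart and sex can differ with them, and at E13.5 origin and Trp53 genotype cannot be told apart either. The E9.5 embryonic gate took GFP-positive cells with a low mCherry signal, and the hindgut piece was the posterior end of the embryo. The study describes the cells of that gate as embryonic cells that took up remnants of dying extraembryonic cells. It states that they can hold some extraembryonic transcripts, which would weaken differences between the origins. The labels number the replicates but do not relate them to litters or sorts, so the p-values measure only the spread between these libraries.

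Hox genes encode homeodomain transcription factors that give cells their position along the head-to-tail axis. Within a cluster the genes are numbered from the 3′ end, and low-numbered genes are in general switched on earlier and further towards the head than high-numbered ones, an order called collinearity. In the gut tube, nested Hox domains mark foregut, midgut and hindgut, and the highest-numbered genes are known for their roles in the cloaca, anorectum and genital tract. Below, paralogue groups 1 to 3 are called anterior, 4 to 8 central and 9 to 13 posterior. In mm10 coordinates HoxA lies on chromosome 6 from 52155590 to 52260880, HoxB on chromosome 11 from 96194316 to 96368256, HoxC on chromosome 15 from 102921103 to 103036852, and HoxD on chromosome 2 from 74668310 to 74765142.

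The libraries held between 3.53 and 12 gigabases of aligned sequence as implied by their coverage (median 6.80), and 10382 to 13596 genes above 1 TPM. All 9 gut epithelium markers averaged above 1 TPM in each of the 4 E9.5 gut groups, with summed levels of 2014 to 6655 TPM per library. Among the emMidgut libraries, 1 and 3 stood apart: the 5 germ cell markers summed to 349 and 334 TPM there and to 5.13 and 6.28 TPM in libraries 2 and 4. In emSI the 9 mesenchyme markers summed to 442, 111 and 1.75 TPM in libraries 1, 2 and 3. Counts of Hox calls that rest on those libraries are given with and without them.

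Hox genes were nearly silent in the early embryo and the yolk sac, abundant in both hindguts, lower in both midguts, and partly extinguished again in the E13.5 intestine. The 39 genes together reached 2.00 to 3.32 TPM in Epi, 3.15 to 13.3 TPM in exEndo1, 3.83 to 13.2 TPM in exEndo2 and 4.18 to 6.96 TPM in YsEndo. The same sum was 1861 to 1995 TPM in emHindgut (1936 ± 59.3, SD, n = 4) and 1296 to 1424 TPM in exHindgut (1341 ± 57.6, SD, n = 4), against 194 to 427 TPM in emMidgut and 170 to 324 TPM in exMidgut. No hindgut library overlapped a midgut library, and the lowest emHindgut sum was above the highest exHindgut sum. At E13.5 the sum was 180 to 272 TPM in emColon and 97.3 to 184 TPM in exColon, and 12.2 to 135 TPM in emSI and 15.5 to 76.4 TPM in exSI. In such bulk libraries fewer expressing cells and less RNA per cell cannot be told apart.

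**Figure D1:**
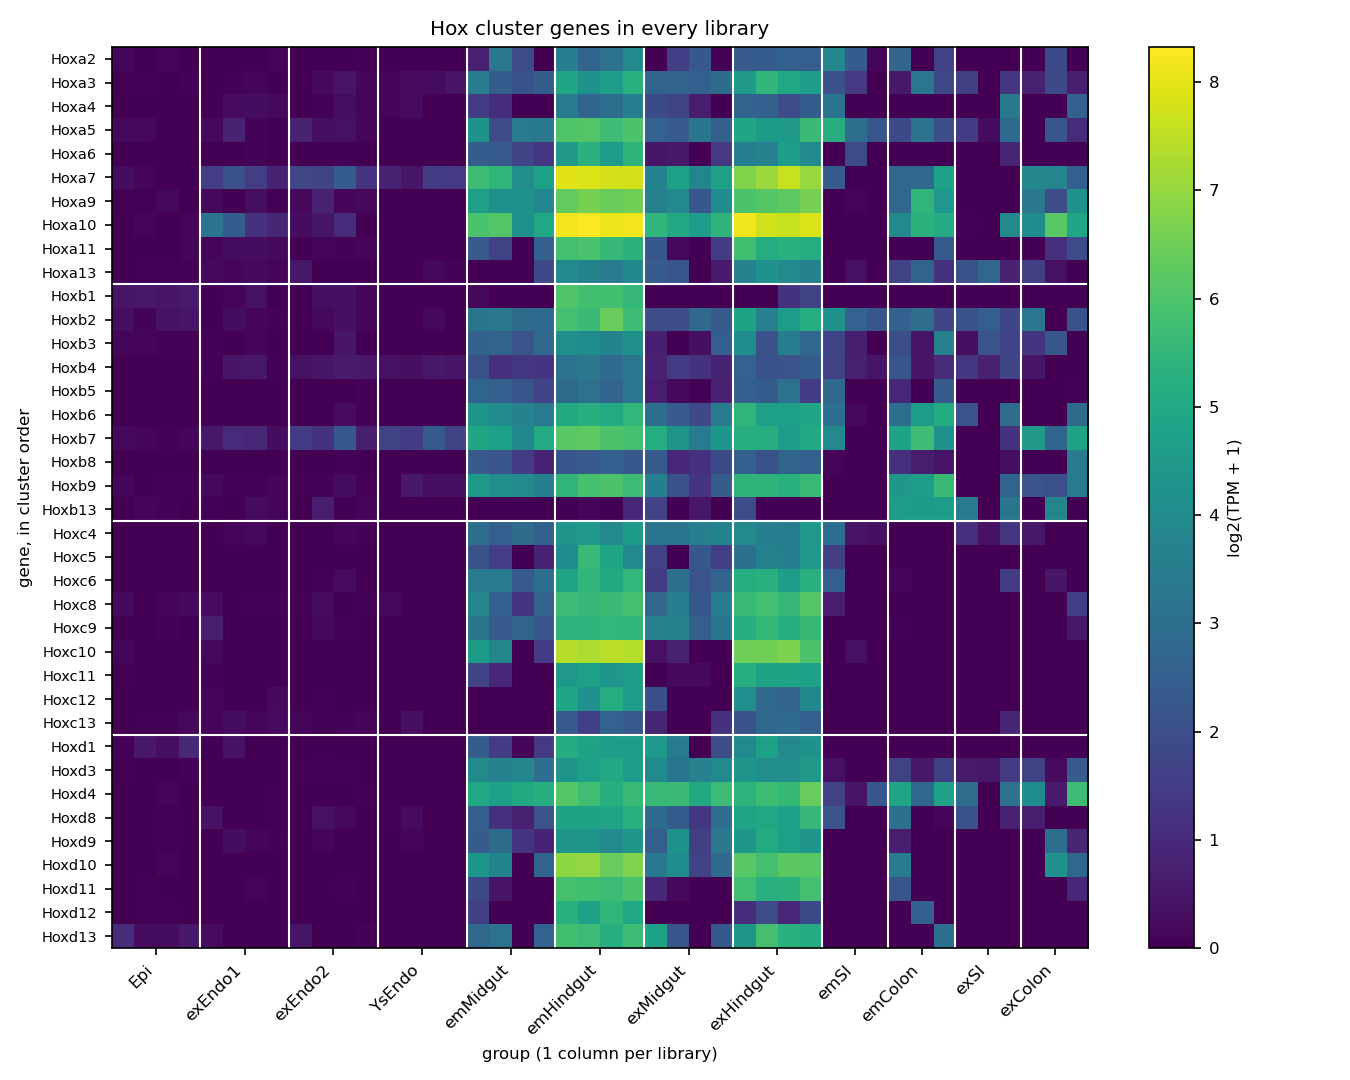
Level of 38 of the 39 Hox genes in every library, as log2(TPM + 1), with 1 column per library and genes in cluster order from paralogue 1 to 13 within HoxA, HoxB, HoxC and HoxD; white lines separate the groups and the clusters. The 8 hindgut libraries are the brightest across all 4 clusters, YsEndo and the E6.5 groups are mostly dark (near 0), and HoxC is dark in emColon.

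Counted by gene, 38 of the 39 averaged above 1 TPM in emHindgut, 37 in exHindgut, 30 in emMidgut and 29 in exMidgut. The exception in emHindgut was Hoxb13, the gene at the far 5′ end of HoxB. Only 2 genes averaged above 1 TPM in YsEndo, and 24 were listed at 0 in all 4 of its libraries. HoxA gave 43.1% of Hox TPM in emHindgut, 44.5% in exHindgut and 41.8% in emMidgut, whereas in exMidgut HoxD gave 36.6% and HoxA 34.6%. Posterior genes made up 53.1% of Hox TPM in emHindgut and 56.4% in exHindgut, against 37.9% in emMidgut and 34.6% in exMidgut, where the central genes had 49.1% and 49.7%.

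**Figure D2:**
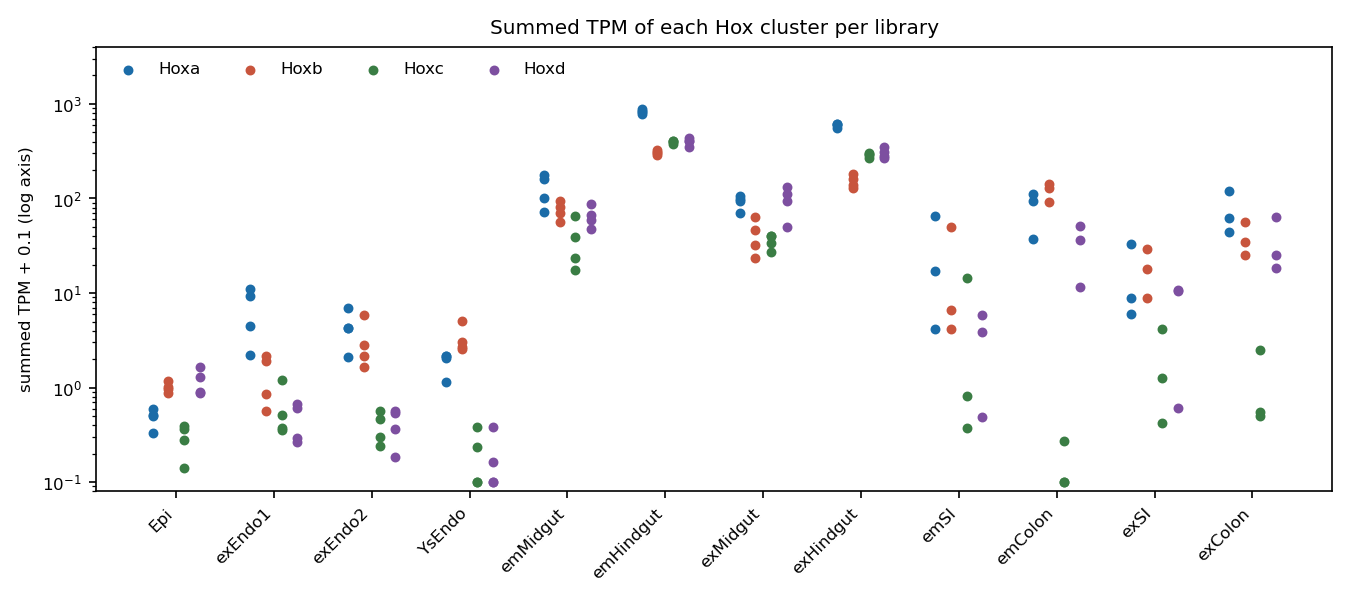
Summed TPM of the genes of each cluster in every library (points), plotted as the sum + 0.1 TPM on a logarithmic axis. HoxC sums to 381 to 404 TPM in emHindgut and to 0 to 0.173 TPM in emColon, and the 4 clusters stand high together in the 2 hindgut groups.

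The first question was how far the Hox code separates hindgut from midgut in each lineage. In embryonic gut, 35 of the 38 Hox genes tested were higher in emHindgut than in emMidgut, where 4.91% of the 13473 genes tested were called higher (limma, Benjamini-Hochberg adjusted p below 0.05 and a difference above 1 in log2(TPM + 1)). In extraembryonic gut, 29 of 38 were higher in exHindgut than in exMidgut, where 4.95% of all genes were called higher. The median Hox difference in log2(TPM + 1) was 2.77 in the embryonic and 2.24 in the extraembryonic lineage, against -0.02 and 0 over all genes tested, and every one of the 38 differences was positive in both. Hoxb13 was below the filter of 1 TPM in 4 libraries and was not tested at E9.5. The filter lets a gene in through the group where it is high, so these counts describe the tested members. With no filter and all 39 genes in the test, 33 and 28 were called.

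The 2 comparisons share no library, but they come from the same fit of the E9.5 gut libraries, with a shared filter and estimate of the spread. They had 28 called Hox genes in common, which is 80.0% of the embryonic list and 96.6% of the extraembryonic list. The same overlap was not counted over all genes, so these shares have no background beside them. Those called only in the embryonic lineage included Hoxa2, Hoxb1, Hoxb7, Hoxc4, Hoxd1 and Hoxd3, called only in the extraembryonic lineage was Hoxb5, and Hoxb8 and Hoxd4 were called in neither. Across the 38 genes the difference and the paralogue number had a Spearman correlation of 0.44 in the embryonic and 0.60 in the extraembryonic lineage, given as a description over genes that share libraries.

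**Figure D3:**
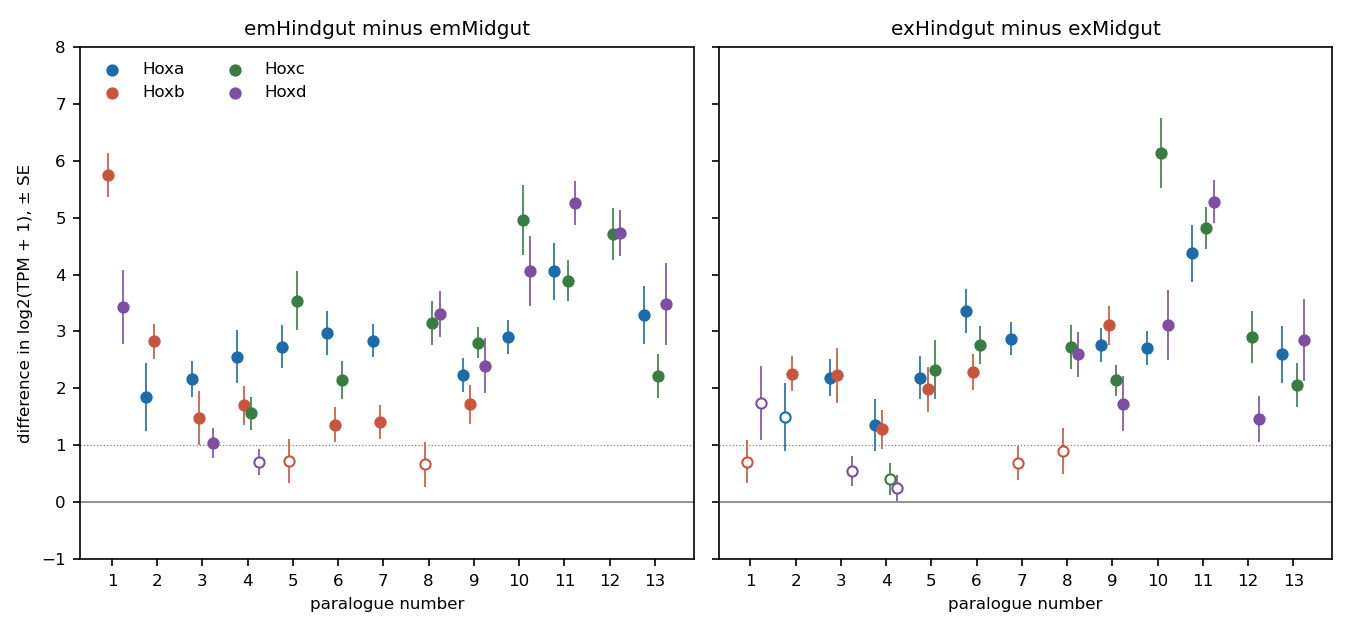
Difference in log2(TPM + 1) between hindgut and midgut (points, with SE bars) against paralogue number for 37 of the 38 tested Hox genes, coloured by cluster, in the embryonic (left) and extraembryonic (right) lineage; filled points were called, open points were not, and the dotted line marks a difference of 1. All points lie above 0, the 15 posterior genes are filled in both panels, and the open points are mostly anterior or central.

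Among the anterior genes, 8 of 8 were called higher in emHindgut (median difference 2.16 in log2(TPM + 1)) and 3 of 8 in exHindgut (median 1.62). Hoxb2, which acts in hindbrain and facial nerve patterning, measured 8.25, 8.91, 6.37 and 6.53 TPM in emMidgut and 56.5, 49.7, 82.3 and 51.9 TPM in emHindgut. In the extraembryonic lineage it measured 2.90, 2.92, 6.31 and 4.11 TPM in exMidgut and 27.3, 11.3, 23.3 and 34.5 TPM in exHindgut. All 8 hindgut values exceeded all 8 midgut values, with log2 differences of 2.83 ± 0.31 (SE, adjusted p = 1.3e-06) and 2.26 ± 0.31 (adjusted p = 2.2e-05). Hoxa3, needed for thymus and parathyroid formation, rose by 2.16 ± 0.32 and 2.19 ± 0.32 on the same scale. Without emMidgut libraries 1 and 3, an alternative chosen after the data were seen, 32 Hox genes were called in the embryonic lineage, and Hoxa2 and Hoxb3 were among those that lost their calls.

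Among the central genes, 12 of 15 were called in the embryonic and 11 of 15 in the extraembryonic lineage, with median log2 differences of 2.15 and 2.19. Hoxa7, known from thoracic vertebral patterning, was the most abundant of them. It measured 246, 228, 222 and 218 TPM in emHindgut and 107, 134, 198 and 130 TPM in exHindgut, against 52.6, 42.2, 16.1 and 25.8 TPM in emMidgut and 12.4, 25.7, 13.3 and 25.1 TPM in exMidgut. Its mean was thus 6.69-fold higher in emHindgut than in emMidgut and 7.43-fold higher in exHindgut than in exMidgut, with no overlap. Hoxc8, a regulator of brachial motor neurons and thoracic skeleton, measured 52.9, 46.1, 50.4 and 57.0 TPM in emHindgut and 48.6, 55.7, 45.4 and 68.1 TPM in exHindgut, and no midgut library passed 13.2 TPM. Hoxa5, which patterns lung and stomach, averaged 61.9 ± 6.51 TPM in emHindgut and 30.6 ± 13.6 TPM in exHindgut (SD, n = 4). Hoxc4 was called higher in the embryonic lineage at 1.56 ± 0.28 (adjusted p = 0.00037) and measured 0.40 ± 0.28 in the extraembryonic one (adjusted p = 0.35), and the difference between the 2 (-1.16 ± 0.40) did not pass the test, with an adjusted p of 0.42.

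Hoxb8 and Hoxd4 were the 2 tested members called in neither lineage. Hoxd4, a gene of the neck and hindbrain boundary, was already abundant in midgut, at 30.1, 25.2, 32.3 and 35.8 TPM in emMidgut and 48.5, 50.4, 32.3 and 51.4 TPM in exMidgut. It measured 69.5, 53.2, 37.0 and 48.2 TPM in emHindgut and 40.8, 52.1, 46.6 and 82.0 TPM in exHindgut, so all 4 emHindgut values lay above emMidgut while the extraembryonic groups overlapped. The log2 differences were 0.71 ± 0.23 (adjusted p = 0.029, below the threshold of 1) and 0.25 ± 0.23 (adjusted p = 0.50). Hoxd4 was the most abundant Hox gene of exMidgut. Hoxb8, a gene of trunk patterning, stayed low in all 4 groups, with means of 2.52 and 4.16 TPM in emMidgut and emHindgut and of 2.21 and 4.64 TPM in exMidgut and exHindgut, and with differences of 0.66 ± 0.40 and 0.90 ± 0.40 in log2(TPM + 1).

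The windows of 250 bases before the RefSeq start of these 2 genes (GRCm38.p6, plus strand, 5′ to 3′) are shown because they are the Hox windows that held the CDX-type motif. CDX proteins are caudal homeodomain factors that regulate Hox genes in the posterior embryo. Windows were found for 22 Hox genes (24 windows). Searched on both strands, the CDX-type motif TTTATNG was in 2 of the 24 Hox windows and in 9.81% of all 32851 windows, the HOX-PBX motif TGATNNAT in 4 of 24 and 7.68%, and the MEIS-type motif TGACAG in 2 of 24 and 15.9%. Capitals mark matches, on either strand, and no match overlapped another. In Hoxb8 the CDX-type matches lay 199 to 193, 120 to 114 and 110 to 104 bases before the start and a HOX-PBX match 11 to 4 bases before it. In Hoxd4 the single match lay 45 to 39 bases before the start.
Hoxb8 window, chr11:96281655-96281904: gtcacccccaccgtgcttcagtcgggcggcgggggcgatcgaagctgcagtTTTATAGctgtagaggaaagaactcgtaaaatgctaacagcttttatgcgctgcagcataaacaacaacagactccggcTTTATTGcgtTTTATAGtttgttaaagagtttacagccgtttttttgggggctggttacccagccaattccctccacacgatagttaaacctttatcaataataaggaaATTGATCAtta
Hoxd4 window, chr2:74721728-74721977: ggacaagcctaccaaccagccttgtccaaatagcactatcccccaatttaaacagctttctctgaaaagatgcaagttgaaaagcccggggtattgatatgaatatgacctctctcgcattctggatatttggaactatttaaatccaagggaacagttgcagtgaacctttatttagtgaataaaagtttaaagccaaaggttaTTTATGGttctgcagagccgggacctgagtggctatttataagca

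The posterior genes gave the clearest separation, with 15 of 15 tested called in each lineage and median log2 differences of 3.48 and 2.85. Hoxa10, which patterns lumbar vertebrae and the uterus, was the most abundant Hox gene in both hindguts. It measured 292, 320, 279 and 289 TPM in emHindgut and 285, 209, 196 and 233 TPM in exHindgut, against 61.8, 67.5, 17.0 and 30.4 TPM in emMidgut and 43.7, 31.8, 23.0 and 41.3 TPM in exMidgut. Its mean was 6.68-fold higher in emHindgut (difference 2.90 ± 0.30 in log2(TPM + 1), adjusted p = 4.2e-07) and 6.59-fold higher in exHindgut (2.71 ± 0.30, adjusted p = 1.0e-06) than in the midgut of the same origin. The 3 group 10 paralogues act together in lumbosacral patterning. Hoxc10 reached 172, 155, 174 and 169 TPM in emHindgut and 88.4, 93.2, 103 and 62.7 TPM in exHindgut. In midgut it was listed at 22.0, 12.7, 0 and 1.70 TPM in the embryonic and at 0.288, 0.787, 0 and 0 TPM in the extraembryonic lineage. Its log2 differences of 4.96 ± 0.61 and 6.13 ± 0.61 were among the largest of the family. Hoxd10 reached 119, 124, 83.3 and 105 TPM in emHindgut and 70.0, 57.4, 74.6 and 71.0 TPM in exHindgut, a mean 11.5-fold and 8.18-fold above the matching midgut.

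Paralogue groups 11 to 13 were low in midgut at E9.5, with 1 exception. Hoxa11 and Hoxd11, which pattern forelimb, kidney and sacrum, averaged 50.8 ± 9.51 and 56.7 ± 4.46 TPM in emHindgut and 40.5 ± 9.71 and 47.0 ± 9.51 TPM in exHindgut (SD, n = 4). Both averaged below 3 TPM in each midgut. Hoxc11 averaged 22.6 ± 2.86 TPM in emHindgut and 29.4 ± 5.38 TPM in exHindgut, and its highest midgut value was 2.24 TPM. Hoxa13 and Hoxd13, required for the cloaca and anal region, averaged 12.6 ± 2.02 and 48.6 ± 8.17 TPM in emHindgut and 14.1 ± 2.91 and 37.5 ± 15.2 TPM in exHindgut. The exception was Hoxd13, which measured 5.88, 7.86, 0 and 5.10 TPM in emMidgut and 27.5, 3.58, 0 and 3.85 TPM in exMidgut, where library 1 overlapped the exHindgut range (20.2, 56.9, 38.8 and 34.0 TPM). Hoxc12 and Hoxc13 were listed at 0 in all 4 emMidgut libraries, and measured 28.7, 17.6, 34.6 and 22.7 TPM and 4.18, 1.89, 5.15 and 3.99 TPM in emHindgut. Both were called higher there (adjusted p = 2.1e-07 and 0.00026). With a midgut group at 0 the size of that difference has no fold.

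Markers of other cell types moved with the region. Gut epithelium markers summed to 2014 to 2565 TPM in emHindgut against 5282 to 6437 TPM in emMidgut, with 7 of 9 called lower, and 5 of 9 were called lower in exHindgut than in exMidgut. Mesenchyme markers had 3 of 7 tested called higher in emHindgut and 1 of 7 in exHindgut, and nephric duct markers 2 of 3 and 1 of 3. Presomitic mesoderm lies beside the hindgut in the posterior embryo. All 3 of its markers (Tbx6, Msgn1 and Meox1) averaged above 1 TPM in both hindguts and summed to 179, 367, 136 and 107 TPM in emHindgut libraries 1 to 4 and to 77.1, 4.53, 50.5 and 37.2 TPM in exHindgut libraries 1 to 4. In the 8 midgut libraries the sum was at most 3.95 TPM, with Msgn1 listed at 0 in all. The exHindgut library with the sum of 4.53 TPM had Msgn1 at 0 and a Hox sum of 1296 TPM, beside 1309 to 1424 TPM in the other 3. In the same library the mesenchyme and nephric duct markers summed to 65.7 and 59.4 TPM, the highest of the exHindgut libraries. The part of such cells in the Hox levels was not tested.

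A second question was whether embryonic and extraembryonic cells that share a gut region share its Hox code. The hindgut-minus-midgut difference itself differed between origins for 2 of the 38 Hox genes, Hoxb1 and Hoxd12 (origin by region interaction, adjusted p below 0.05), where 0.0965% of all genes tested (13 genes) passed. In both, the embryonic hindgut was the only group with substantial expression.

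Hoxb1, the gene at the 3′ end of HoxB, is a retinoic acid target known for hindbrain segment identity. It measured 65.5, 54.5, 54.8 and 45.3 TPM in emHindgut and 0.0169, 0, 1.33 and 2.05 TPM in exHindgut. In midgut it was listed at 0.122, 0, 0 and 0 TPM in the embryonic and at 0 in all 4 extraembryonic libraries. The groups of hindgut libraries were far apart: the mean depth of reads over the gene was 74.7 to 341 in emHindgut and 0 to 3.09 in exHindgut. The interaction was -5.04 ± 0.54 in log2(TPM + 1) (adjusted p = 0.00012), and exHindgut was lower than emHindgut by a difference of -5.08 ± 0.38 (adjusted p = 1.3e-08). The interaction stayed past the threshold without any 1 of the 16 libraries, but with 0.1 TPM in place of 1 TPM added before the logarithm it was -6.68 with an adjusted p of 0.11.

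Hoxd12, a posterior gene known for limb and anal sphincter patterning, measured 37.7, 26.4, 43.4 and 30.4 TPM in emHindgut and 1.13, 2.80, 0.903 and 2.67 TPM in exHindgut. It was listed at 2.00, 0, 0 and 0 TPM in emMidgut and at 0 in all exMidgut libraries. The emHindgut mean was 18.4-fold the exHindgut mean, with read depths of 61.3 to 234 and 1.68 to 12. The interaction was -3.27 ± 0.58 (adjusted p = 0.029) and the difference between the hindguts was -3.67 ± 0.41 (adjusted p = 6.3e-06). The interaction was -3.16 with an adjusted p of 0.56 when 0.1 TPM was added, and its adjusted p was 0.052 to 0.069 when any of emMidgut libraries 2, 3 or 4, emHindgut libraries 1, 3 or 4, or exHindgut libraries 1, 2 or 3 was left out.

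The genes on either side of Hoxd12 had no such gap. Hoxd11 measured 59.4, 55.0, 51.2 and 61.1 TPM in emHindgut and 54.1, 38.1, 39.6 and 56.3 TPM in exHindgut, and Hoxd13 measured 54.4, 51.0, 36.5 and 52.3 TPM against 20.2, 56.9, 38.8 and 34.0 TPM. The ranges overlapped for both, with log2 differences between the hindguts of -0.28 ± 0.38 (adjusted p = 0.81) and -0.44 ± 0.72 (adjusted p = 0.85).

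**Figure D4:**
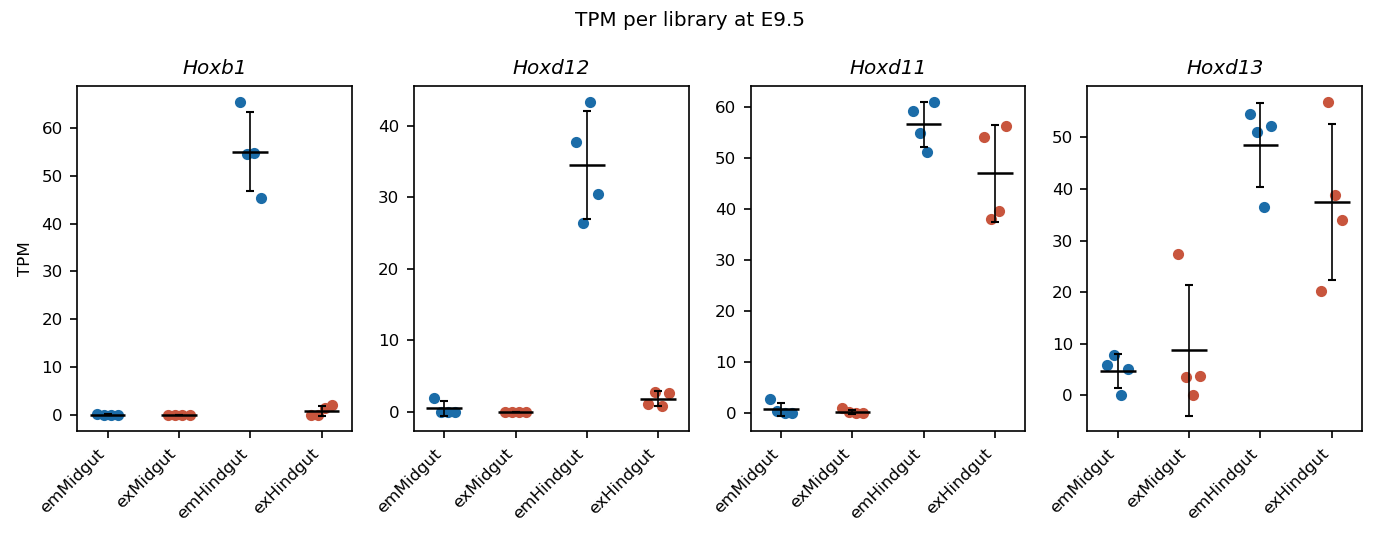
TPM of Hoxb1, Hoxd12, Hoxd11 and Hoxd13 in each E9.5 gut library (points), with the mean (bar) and SD (error bar) of 4 libraries per group, embryonic groups in blue and extraembryonic groups in red. Hoxb1 and Hoxd12 are high in emHindgut alone, at 26.4 to 65.5 TPM, whereas Hoxd11 and Hoxd13 overlap between emHindgut and exHindgut.

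The windows before the start of Hoxb1, Hoxd12 and Hoxd11 are shown so that the 2 genes that differed by origin can be read beside a neighbour that did not (GRCm38.p6, plus strand, 5′ to 3′, capitals as above). Hoxb1 held a HOX-PBX match 162 to 155 bases before its start, Hoxd12 held no match to the 3 motifs, and of the 2 annotated starts of Hoxd11 the downstream one held a HOX-PBX match 73 to 66 bases before it. These matches are a description of the sequence.
Hoxb1 window, chr11:96365508-96365757: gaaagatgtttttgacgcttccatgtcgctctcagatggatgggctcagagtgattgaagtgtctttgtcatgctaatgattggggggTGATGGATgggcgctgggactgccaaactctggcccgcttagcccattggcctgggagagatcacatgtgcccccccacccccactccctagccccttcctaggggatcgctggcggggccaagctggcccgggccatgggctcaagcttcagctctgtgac
Hoxd12 window, chr2:74674763-74675012: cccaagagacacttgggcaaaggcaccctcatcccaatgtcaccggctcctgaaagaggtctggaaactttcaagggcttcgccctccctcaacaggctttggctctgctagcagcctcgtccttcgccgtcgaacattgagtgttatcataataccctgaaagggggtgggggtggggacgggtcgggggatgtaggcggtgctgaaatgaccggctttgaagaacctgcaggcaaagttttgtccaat
Hoxd11 first window, chr2:74679308-74679557: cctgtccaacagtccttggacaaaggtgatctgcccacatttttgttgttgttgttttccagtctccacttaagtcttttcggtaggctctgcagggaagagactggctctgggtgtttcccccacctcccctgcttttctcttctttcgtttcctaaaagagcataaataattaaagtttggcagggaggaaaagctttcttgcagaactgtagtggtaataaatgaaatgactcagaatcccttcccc
Hoxd11 second window, chr2:74682073-74682322: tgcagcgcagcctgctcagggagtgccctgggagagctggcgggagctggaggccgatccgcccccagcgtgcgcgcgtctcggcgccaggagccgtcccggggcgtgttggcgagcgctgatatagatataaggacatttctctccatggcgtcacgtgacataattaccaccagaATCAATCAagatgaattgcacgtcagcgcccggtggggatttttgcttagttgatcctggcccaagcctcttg

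Between the 2 hindguts, 4 of 38 Hox genes were called lower in exHindgut, where 1.32% of all genes tested were called lower, and none was called higher by limma (9 Hox genes had an unadjusted p under 0.05 in either direction). They were Hoxb1, Hoxd12, Hoxb2 and Hoxb7. In all, 29 of the 38 differences were negative, with a median of -0.44 in log2(TPM + 1) against -0.02 over all genes. Hoxb2, with the hindgut values given above, was lower by -1.35 ± 0.31 (adjusted p = 0.016). Its call was lost without emHindgut library 3 (-1.20) or without exHindgut library 2 (-1.05). Hoxb7, a trunk gene also used in the ureteric bud, measured 71.7, 75.8, 62.9 and 55.6 TPM in emHindgut and 35.6, 35.5, 23.0 and 31.5 TPM in exHindgut, which did not overlap. Its difference was -1.07 ± 0.30 (adjusted p = 0.049), close to both thresholds, and the call was lost without any 1 of the 8 hindgut libraries. Markers of other cell types were also lower in exHindgut: 2 of 3 presomitic mesoderm markers, with the sums given above, 2 of 7 tested mesenchyme markers and 1 of 3 tested nephric duct markers were called lower, and their part in these differences was not tested.

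Between the 2 midguts, 6 of 38 Hox genes were called lower in exMidgut, where 2.20% of all genes tested were called lower, and none was called higher by limma (14 Hox genes had an unadjusted p under 0.05 in either direction). Of the 6, 4 were HoxB genes, and all 9 tested HoxB genes had negative differences, while the 38 genes together split into 17 positive and 21 negative. Hoxb9, a thoracic gene, measured 21.4, 16.1, 14.6 and 11.2 TPM in emMidgut and 10.9, 3.26, 1.38 and 4.38 TPM in exMidgut (-1.70 ± 0.34, adjusted p = 0.0042). Hoxb5, known from the enteric nervous system and lung, measured 5.42, 4.90, 3.52 and 2.17 TPM in emMidgut and 0.604, 0.143, 0.024 and 0.698 TPM in exMidgut (-1.85 ± 0.39, adjusted p = 0.0062). Neither pair of groups overlapped. Hoxb6 (-1.20 ± 0.31), Hoxb3 (-1.67 ± 0.48), Hoxa6 (-1.34 ± 0.39) and Hoxc10 (-2.13 ± 0.61) were called at adjusted p of 0.024 to 0.045, and the values of Hoxb6, Hoxb3, Hoxa6 and Hoxc10 in the 2 groups touched or overlapped.

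The midgut counts moved with single libraries. Of the 6, 2 stayed called without emMidgut library 1, emMidgut library 2, exMidgut library 2 or exMidgut library 3, and 3 without exMidgut library 1. Without exMidgut library 3, 1 further Hox gene was called higher in exMidgut. Without emMidgut libraries 1 and 3, which held germ cell markers, Hoxc10 alone was called. Yolk sac endoderm markers also moved with origin: 8 of 8 averaged above 1 TPM in both midguts, and they summed to 7245 to 17248 TPM in exMidgut, 1521 to 3263 TPM in emMidgut and 62356 to 72255 TPM in YsEndo. Other markers differed between midgut libraries. Small intestine markers summed to 2.54 TPM in emMidgut library 1 and to 22.6 to 28.0 TPM in the others. In exMidgut they summed to 7.92 TPM in library 1 and to 22.5 to 64.4 TPM in the others. Mesenchyme markers were lowest in library 3 of each midgut, at 12.3 TPM in emMidgut and 7.92 TPM in exMidgut. The part of these markers in the HoxB differences was not tested. With the 2 regions pooled into 8 exGut and 8 emGut libraries, no Hox gene was called by limma, against 2.35% of all genes called in either direction, and 4 Hox genes had an unadjusted p under 0.05. That fit leaves the difference between hindgut and midgut in the spread. With gut region as a covariate, 8 Hox genes were called, all lower in exGut. The 2.35% is from the fit without that covariate, so the 8 have no share over all genes beside them.

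Genes that work with or on the Hox clusters were described by the same fits. PBX, MEIS and PKNOX proteins (the TALE class) bind DNA together with Hox proteins. Over all genes tested, 4.91% were called higher and 7.92% lower in emHindgut than in emMidgut, and 4.95% higher and 7.30% lower in exHindgut than in exMidgut. Of 9 tested TALE genes, 1 was called higher and 1 lower in hindgut, and the same 2 genes were called in each lineage. Meis1 measured 18.0, 3.43, 6.92 and 9.48 TPM in emHindgut against 35.8, 55.8, 54.9 and 66.5 TPM in emMidgut (-2.54 ± 0.32), and differed by -2.11 ± 0.32 in the extraembryonic lineage. Pknox2 was higher in hindgut by 1.51 ± 0.44 and 1.43 ± 0.44. None of the 9 was called between origins in either region, where 1.67% of all genes were called higher and 2.20% lower in exMidgut, and 1.32% in each direction in exHindgut.

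Caudal factors, retinoic acid, FGF and WNT signals set Hox expression in the posterior embryo. Of 13 tested genes of that list, 8 were higher and 2 lower in emHindgut than in emMidgut, and 6 were higher and 2 lower in exHindgut than in exMidgut. Fgf8 reached 532, 319, 455 and 451 TPM in emHindgut and 591, 431, 376 and 321 TPM in exHindgut, and was listed at 0 in 6 of the 8 midgut libraries. Cyp26a1, which degrades retinoic acid, averaged 589 ± 106 TPM in emHindgut and 227 ± 28.9 TPM in exHindgut, with log2 differences from midgut of 6.96 ± 0.54 and 7.23 ± 0.54. The retinoic acid receptor gene Rarb went the other way, by -3.10 ± 0.44 and -2.63 ± 0.44.

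Cdx4 was the regulator that separated the origins most widely. It measured 451, 509, 437 and 526 TPM in emHindgut and 16.2, 0, 0 and 0.0797 TPM in exHindgut, and 42.6, 34.4, 3.57 and 2.83 TPM in emMidgut against 0, 0, 0 and 0.147 TPM in exMidgut. The groups did not overlap in either region, with differences in log2(TPM + 1) of -7.85 ± 0.79 (adjusted p = 1.3e-06) in hindgut and -3.63 ± 0.79 (adjusted p = 0.0076) in midgut. Its relative Cdx2 measured 248, 242, 272 and 306 TPM in emHindgut and 334, 205, 231 and 205 TPM in exHindgut, which overlapped. In midgut Cdx2 was lower in the extraembryonic cells, at 137, 127, 167 and 180 TPM against 320, 293, 384 and 401 TPM (-1.19 ± 0.15). Aldh1a2, which makes retinoic acid, was called lower in extraembryonic cells in midgut (-2.75 ± 0.44) and in hindgut (-1.56 ± 0.44, adjusted p = 0.049). No gene of this list passed the origin by region interaction.

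Polycomb proteins hold Hox genes silent and trithorax proteins hold them active. Of 23 tested genes of these complexes, 0 were higher and 1 lower in hindgut in each lineage (Cbx7 in the embryonic, at -1.53 ± 0.23, and Cbx8 in the extraembryonic). Between origins the single call was Cbx7, a chromodomain subunit of Polycomb repressive complex 1. It measured 1.76, 1.58, 2.53 and 3.32 TPM in emHindgut and 112, 121, 167 and 146 TPM in exHindgut, and 5.57, 7.26, 9.98 and 11.8 TPM in emMidgut against 205, 152, 183 and 187 TPM in exMidgut, with no overlap in either region. The difference was 5.39 ± 0.23 in log2(TPM + 1) in hindgut (adjusted p = 8.2e-13) and 4.28 ± 0.23 in midgut (adjusted p = 5.9e-11). YsEndo, which shares the extraembryonic origin, had 55.9 to 85.8 TPM.

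Of 12 tested genes that flank the clusters, 2 were higher and 1 lower in hindgut in each lineage. The 2 were Evx1 and Evx2, homeobox genes beside the 5′ ends of HoxA and HoxD. Evx1 measured 52.3, 52.6, 45.5 and 46.9 TPM in emHindgut and 39.4, 49.3, 35.8 and 50.9 TPM in exHindgut, and at most 10.6 TPM in midgut. Calcoco1, the gene near HoxC that was lower, averaged 16 and 21.6 TPM in the embryonic and extraembryonic hindgut and 48.9 and 50.1 TPM in the midguts. Of the 11 listed noncoding genes of the clusters, 10 were measured, and the filter on protein-coding genes kept them out of the test. Their sum was 1474 to 1664 TPM in emHindgut and 764 to 1208 TPM in exHindgut. In midgut it was 79.8 to 228 TPM (emMidgut) and 68.7 to 106 TPM (exMidgut). Hotair, from the HoxC cluster, was listed at 16.8, 15.6, 8.94 and 19.4 TPM in emHindgut, at 4.16, 3.94, 7.76 and 13.8 TPM in exHindgut, and at 0 in all 8 midgut libraries. The library type is not stated to mark strand, so reads of overlapping antisense pairs cannot be told apart. In all, 10 Hox genes share exon bases with a gene on the other strand. Hoxa11 shares 35.0% of its exon bases with Hoxa11os, and Hoxb3 shares 52.9% with Hoxb3os. Among the others, Hoxb2 shares 27.3% with Hoxb3os, Hoxa7 shares 20.4% with Hoxaas3, and Hoxa3 shares 25.4% with several antisense genes. On the same strand, Hoxd3 shares 62.3% and Hoxd4 52.3% of their exon bases, with each other and with Gm28230. The levels of Hoxd3 and Hoxd4 are therefore not fully separate measurements.

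YsEndo is extraembryonic endoderm of the yolk sac at the same stage as the E9.5 gut. The study derives YsEndo from proximal endoderm (exEndo2) and the extraembryonic gut cells from distal endoderm (exEndo1). Precursor, tissue and location therefore differ together between them. All 36 Hox genes tested were higher in exHindgut than in YsEndo, where 33.7% of the 12801 genes tested were called higher, and 24 of 36 were higher in exMidgut than in YsEndo, where 33.6% were. The median Hox differences were 4.62 and 2.33 in log2(TPM + 1), against 0.59 and 0.55 over all genes. Most of these genes passed the filter through the gut groups. With no filter 37 and 23 were called, and after quantile normalization, which moved the all-gene medians to 0.07 and 0, 35 and 23. Hoxb7 at 2.14, 1.79, 4.07 and 2.27 TPM and Hoxa7 at 0.738, 0.427, 1.75 and 1.61 TPM were the most abundant Hox genes of YsEndo. Hoxa10 showed the widest hindgut gap, at 7.84 ± 0.22 (adjusted p = 2.4e-13), and Hoxd4 the widest midgut gap, at 5.52.

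In the E6.5 tissues 3 Hox genes passed the filter, and 2 of the 3 were higher in exEndo1 than in Epi, where 20.0% of the 12430 genes tested were called higher. All 3 passed the filter through exEndo1 and exEndo2 libraries alone. Their selection thus favoured a higher level in exEndo1 than in Epi, and the count describes only the tested members. Hoxa10 measured 7.98, 4.47, 1.35 and 0.842 TPM in exEndo1 and averaged below 0.1 TPM in Epi (difference 1.87 ± 0.39 in log2(TPM + 1), adjusted p = 0.00077). Hoxa7 measured 1.82, 3.30, 1.86 and 0.757 TPM in exEndo1 (1.39 ± 0.27, adjusted p = 0.00036). Hoxb7, the third gene tested, measured 0.447, 1.05, 0.885 and 0.210 TPM and was not called (0.55 ± 0.28, adjusted p = 0.092). In exEndo2, Hoxa7 at 2.45, 2.29, 4.39 and 1.45 TPM and Hoxb7 at 1.73, 1.26, 3.89 and 0.621 TPM led, while Hoxa10 was at 0.219, 0.430, 1.11 and 0.0154 TPM. The remaining 36 genes averaged below 1 TPM in all 3 tissues. The count of 2 became 1 without exEndo1 library 1, 2 or 3.

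At E13.5, fewer Hox genes were expressed and the libraries of a group were far apart. Of the 39, 22 passed the filter, and 23 averaged above 1 TPM in emColon, 19 in exColon, 14 in emSI and 13 in exSI. Between embryonic organs 3 of 22 were higher in emColon than in emSI, where 0.280% of the 12483 genes tested were called higher. The 3 were posterior genes. Hoxa10 measured 14.5, 40.2 and 33.4 TPM in emColon and was listed at 0 in all 3 emSI libraries (adjusted p = 0.029). Hoxb9 measured 20.4, 24.0 and 47.9 TPM in emColon and was likewise listed at 0 in emSI (adjusted p = 0.010). Hoxa9 measured 5.67, 43.0 and 20.8 TPM in emColon and 0, 0.106 and 0 TPM in emSI (4.17 ± 0.81 in log2(TPM + 1), adjusted p = 0.023). All 3 genes passed the filter through colon libraries, and with no filter 1 of the 3, Hoxb9, was called. None of the 3 stayed called without emSI library 1 or without emSI library 2, and 1 of the 3 stayed called without emSI library 3, emColon library 2 or emColon library 3. Without emSI library 1, which had the mesenchyme sum of 442 TPM, 1 other Hox gene was called instead.

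Hoxb13, known for its role in hindgut, prostate and tail tip, had the smallest SD relative to its mean among the 23 Hox genes above 1 TPM in emColon, at 24.0, 22.4 and 24.7 TPM, and it was listed at 0 in all emSI libraries (adjusted p = 0.062, not called). In the extraembryonic, Trp53 KO cells it measured 0, 12.9 and 0 TPM in exColon and 9.51, 0 and 8.31 TPM in exSI. The exColon and emColon values did not overlap, but the difference of -3.36 ± 1.06 in log2(TPM + 1) did not pass the test (adjusted p = 0.19), nor did the origin by organ interaction of -5.56 ± 1.49 (adjusted p = 0.35). Between exColon and exSI no Hox gene was called, against 0.857% of all genes in either direction, with 5 of 22 at an unadjusted p under 0.05. Hoxa10 and Hoxa9 had the values 15.4, 73.0 and 29.8 TPM and 9.02, 2.91 and 17.8 TPM in exColon, beside 0.0505, 0 and 14.1 TPM and 0 in all 3 libraries of exSI, with adjusted p of 0.11 and 0.096. No Hox gene was called by limma for the origin by organ interaction (0.0160% of all genes called, 4 Hox genes at an unadjusted p under 0.05), between exColon and emColon (0.617%, 4 Hox genes) or between exSI and emSI (0.505%, 2 Hox genes). Surface ectoderm markers summed to 182, 40.8 and 13.3 TPM in exColon and to 2.32, 57.2 and 10.2 TPM in emColon. In exSI that sum was at most 2.46 TPM. Small intestine markers summed to 7.72 to 11.9 TPM in exColon and to 0.0312 to 1.71 TPM in emColon. The part of these markers in the Hox levels was not tested.

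**Figure D5:**
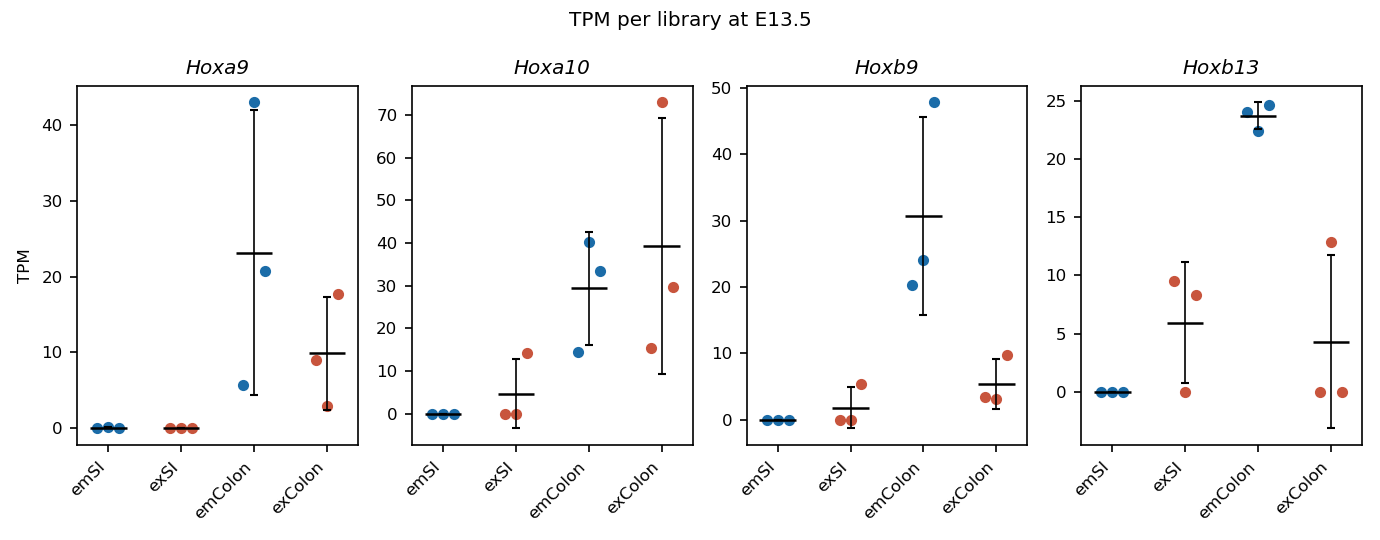
TPM of Hoxa9, Hoxa10, Hoxb9 and Hoxb13 in each E13.5 library (points), with the mean (bar) and SD (error bar) of 3 libraries per group, embryonic WT groups in blue and extraembryonic Trp53 KO groups in red. In emColon all 4 genes lie at 5.67 to 47.9 TPM and in emSI at 0 to 0.106 TPM, while the extraembryonic groups spread between 0 and 73.0 TPM.

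No Hox gene was called lower in emColon than in emSI. Hoxa5 had the highest mean in emSI, at 35.8, 6.98 and 3.71 TPM, followed by Hoxb2 at 18.4, 5.15 and 3.70 TPM and by Hoxa2. Library 1 was highest for each, and its Hox sum was 135 TPM beside 24.8 and 12.2 TPM in libraries 2 and 3, in the order of the mesenchyme marker sums given above. For the mesenchyme list 7 of 9 genes averaged above 1 TPM in emSI and 2 of 9 in emColon, where the sum was 6.49 to 12.4 TPM. Its part in the emSI levels was not tested.

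Between E9.5 and E13.5 most of the embryonic hindgut program declined. From emHindgut to emColon, 34 of 39 Hox genes were lower, where 18.5% of the 13525 genes tested were called lower, and 1 was higher, where 4.45% were. The median Hox difference was -3.88 in log2(TPM + 1), against -0.51 over all genes. HoxC fell as a whole: its 9 genes summed to 381 to 404 TPM in emHindgut and to 0.173, 0 and 0 TPM in emColon, and 9 of 9 were called lower. Other-tissue markers fell with it: the presomitic mesoderm sum went from 107 to 367 TPM in emHindgut to 0 in every emColon library and the mesenchyme sum from 78.7 to 108 TPM to 6.49 to 12.4 TPM, and their part in the Hox decline was not tested. HoxD was lower in 9 of 9 and HoxA in 10 of 11. In HoxB, Hoxb6, Hoxb7 and Hoxb9 were not called, with emColon means of 21.5, 31.8 and 30.8 TPM, and HoxB rose to 51.7% of Hox TPM from 15.8% in emHindgut. The fourth gene not called was Hoxa2. The 1 gene that rose was Hoxb13, from 0, 0.0992, 0 and 0.893 TPM in emHindgut to the emColon values above (4.36 ± 0.36, adjusted p = 4.8e-07). After quantile normalization, which moved the all-gene median to -0.05, 28 Hox genes were lower and 1 higher.

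From emMidgut to emSI, 13 of 39 Hox genes were lower, where 11.0% of all genes tested were, and none was higher by limma (23 Hox genes had an unadjusted p under 0.05 in either direction). The median was -1.47, against -0.35 over all genes. They were Hoxa7, Hoxa9, Hoxa10, Hoxb6, Hoxb7, Hoxb8, Hoxb9, Hoxc6, Hoxc8, Hoxc9, Hoxd3, Hoxd4 and Hoxd9. Without emMidgut libraries 1 and 3 the count was again 13, but 4 of these genes, Hoxb6, Hoxb8, Hoxc6 and Hoxd9, were no longer called and 4 others were. Without emSI library 1 all 13 stayed called, among 16. Hoxd4, the third most abundant Hox gene of emMidgut, measured 2.06, 0.390 and 3.75 TPM in emSI (-3.54 ± 0.50, adjusted p = 0.00016). Hoxd3, which shares exon bases with Hoxd4, fell by a similar difference of -3.49 ± 0.44. Stage, dissection, sort gate (GFP-positive mCherry-low at E9.5, GFP-positive at E13.5) and pooling of embryos changed together in these comparisons. At E13.5, 9 to 90 of the 5900 genes that were at 10 TPM or more in every E9.5 gut library were listed at 0 in a given library, so a Hox gene listed at 0 there is not shown to be absent.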

How the data were processed

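RNA was measured by low-input poly(A) sequencing in 44 libraries. Per the submitters' processing notes, reads were trimmed with cutadapt 4.1, aligned to mm10 with STAR 2.7.9a and quantified per library with StringTie 2.0.6. The deposited tables of the authors give, per gene and library, TPM, FPKM and coverage (mean read depth). The study tested read counts with a count model. The deposited values are not counts, so limma 3.58.1 (R 4.3.3) was used here instead. Depth was known only as implied by coverage and length.

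TPM were summed per gene identifier and analysed as log2(TPM + 1), with libraries grouped by their labels. Protein-coding genes, taken from GENCODE vM21 (32235 of 32287 identifiers matched), were tested where TPM exceeded 1 in at least 4 libraries, or 3 for comparisons with E13.5. Y-linked genes were left out. Tests were two-sided limma contrasts with a mean-variance trend and Benjamini-Hochberg adjustment over all genes tested. A call needed an adjusted p below 0.05 and a difference above 1; interactions needed only the p. The fits were tested on simulated data.

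The members and lists were chosen with earlier results of these data known. All 39 Hox genes are members and enter the counts, but the values of 1 of them are not reported here. Values per library are given for members called in a described comparison and for the most abundant ones, others by range or count. The related lists (9 TALE cofactors, 14 upstream regulators, 23 Polycomb and trithorax genes, 14 flanking genes, 11 noncoding genes) are given by counts with examples. Of the flanking genes 13 were measured, and of the noncoding genes 10. Promoter windows and their sequences are from RefSeq (GRCm38.p6). Alternatives were another pseudocount, no filter, quantile or median-ratio scaling, FPKM, all gene types, no trend, a replicate block, fits of only the compared groups and leaving out each library.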

Additional observations from a re-analysis of the deposited data

Results flagged for a closer look

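In 9 of 148 sets of 4 values (1 Hox gene, or the sum of all 39, in 1 group), 1 library lay far from the other 3, with a gap that took up most of the range of the set. Chance gives such a gap in about 1 in 20 sets. In emMidgut, library 1 had Hoxa3 at 10.3 TPM, beside 3.27 to 4.43 TPM in the others, and Hoxb4 at 3.17 TPM, beside 1.23 to 1.54 TPM. In emHindgut, Hoxd8 was at 37.8 TPM in library 4, beside 26.7 to 28.1 TPM, and Hoxd9 at 14.2 TPM in library 3, beside 19.3 to 20.1 TPM. In exMidgut, Hoxb3 was at 4.56 TPM in library 4, beside 0 to 0.617 TPM, Hoxd4 at 32.3 TPM in library 3, beside 48.5 to 51.4 TPM, and Hoxd13 at 27.5 TPM in library 1, beside 0 to 3.85 TPM. In exHindgut, library 1 had Hoxa11 at 54.8 TPM, beside 34.5 to 37.9 TPM, and Hoxc11 at 37.4 TPM, beside 26.0 to 27.3 TPM.

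For 2 genes the difference between hindgut and midgut differed between the embryonic and extraembryonic lineages by the origin by region interaction: -5.04 in log2(TPM + 1) for Hoxb1 and -3.27 for Hoxd12.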

How the results depend on the processing

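Of 3198 alternative values for 189 single-gene results, 3030 kept their direction and side of the threshold, 168 fell below it and 0 reversed. Of 285 alternative counts of Hox calls, 247 were within 1.5 times the reported count. The others were as follows. With 0.1 TPM added, the E9.5 interaction count was 0 and exColon against exSI had 1. For exMidgut against emMidgut the 6 became 3 with no filter, quantile normalization or FPKM, and 1 with a fit of only those groups or without emMidgut libraries 1 and 3 (chosen after seeing the data). For exGut against emGut, a region covariate gave 8 and leaving out those libraries gave 1. For exEndo1 against Epi, FPKM gave 1 and a fit of only those groups 0. With no filter, emColon against emSI had 1.

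Leaving out 1 library gave 33 to 35 calls for emHindgut against emMidgut, 28 to 30 for exHindgut against exMidgut, 1 to 2 for their interaction, 2 to 5 for exMidgut against emMidgut, 2 to 3 for exHindgut against emHindgut, 1 to 2 for exEndo1 against Epi, 0 to 3 for emColon against emSI, 0 to 1 for exColon against exSI, 0 to 1 for exColon against emColon, and 12 to 18 for emSI against emMidgut. The exColon against exSI call came without exSI library 3 and the exColon against emColon call without exColon library 2. The cause was not tested; these fits hold fewer samples. Deviations of libraries that share a replicate number were weakly correlated (-0.16 to 0.18). They were all positive for emSI and exSI (0.0502 to 0.0723) and for emMidgut and exMidgut (0.0118 to 0.0762). The same held for exSI and exColon (0.00516 to 0.0369) and for emColon and exColon (0.0150 to 0.0278). They were all negative for emSI and emColon. In the remaining pairs of groups, Epi and exEndo1 among them, the signs were mixed. With 3 or 4 libraries per group these values cannot decide whether the numbers pair the libraries. A replicate block left the count at 35 for emHindgut against emMidgut and changed no other Hox count.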

Other observations

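The long noncoding genes of the HoxA and HoxB clusters were among the most abundant cluster transcripts of the hindgut. Hoxa11os was listed at 401, 417, 349 and 321 TPM in emHindgut and at 194, 209, 195 and 179 TPM in exHindgut, which did not overlap, and at 47.3, 47.5 and 56.6 TPM in emColon against 0 in all 3 emSI libraries. Hoxb5os averaged 356 TPM in emHindgut and 119 TPM in exHindgut. These genes were not tested, and antisense reads cannot be told apart from those of the Hox genes they overlap.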
